A study of Arabidopsis thaliana with 12 samples.

Results

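The histone H3 genes AT1G09200 and AT1G13370 and the kinesin gene AT1G21730 of Arabidopsis thaliana were each measured by 1 probe annotated to that gene alone, 3 of the 689 genes that had such a probe, on arrays of 3439 probes. They were chosen by locus because, of a group of genes, these 3 had passed a test as higher in the mutant after normalisation. The comparison of the genotypes therefore chose them, and its values for the 3 genes are given below as a description, without a test. Their total RNA came from 6 samples of the pete1 mutant and 6 of the wild type (WT), both of ecotype Columbia 0 and both grown on MS medium, a standard plant culture medium. The pete1 mutant lacks one isoform of plastocyanin, a small copper protein of the photosynthetic electron transport chain, and the arrays ask which transcripts differ in abundance without it. The labels number the samples 1 to 6 in each genotype and say nothing of tissue, age or separate plants, so each p-value below rests on the spread among these samples alone, part of which may be technical.

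Histone H3 is a core protein of the nucleosome, the unit in which DNA is wound up in the nucleus. The form H3.1 is laid down mainly as DNA is copied, and its genes are transcribed most in cells preparing to divide, whereas H3.3 is also laid down outside DNA replication. Kinesins are motor proteins that move along microtubules. Several of them work in the spindle and in the structure that builds the new cell wall between daughter cells. Whether AT1G21730 is one of those was not tested. In RNA from whole samples, a change in the share of dividing cells and a change in transcript per cell cannot be told apart. Only 2 of the 19 loci fixed as markers of dividing cells, meristems, roots or green leaf tissue had a probe of their own. Both were green tissue genes and both were higher in pete1, LHCB1.5 at 31.1 ± 3.62 in pete1 and 10.1 ± 2.30 in WT and PRK at 1.14 ± 0.273 in pete1 and 0.565 ± 0.119 in WT (intensity, SD, n = 6 each). Their part in the results below was not tested, and the share of dividing cells was not checked.

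Intensities were deposited on a linear scale, and their distribution over the probes differed by genotype. The median intensity was 0.309 ± 0.0208 in pete1 and 0.544 ± 0.0641 in WT (SD, n = 6 each), and no pete1 sample reached the lowest WT sample. The mean intensity differed far less, at 0.977 ± 0.0362 in pete1 and 1.058 ± 0.00789 in WT. At the 99th percentile the order turned, with every pete1 sample above every WT sample. The genotypes therefore did not differ by a single brightness factor. Each gene is therefore described both by its deposited intensity and by its percentile rank, the percentage of the 3439 probes in the same sample that were as dim or dimmer, with ties averaged. Samples with consecutive numbers (1 with 2, 3 with 4, 5 with 6) resembled each other across the array, so the 6 samples may hold fewer independent ones.

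The transcript of AT1G09200, which the RefSeq gene table names histone 3.1, lay above the middle of the array in every pete1 sample and below it in every WT sample. Its percentile rank in pete1 was lowest at 52.0, had a median of 66.3 and was highest at 73.9. In WT it was lowest at 22.7, had a median of 40.3 and was highest at 45.9. The ranks of the genotypes did not overlap, and the mean was 63.8 ± 9.71 in pete1 and 36.8 ± 9.30 in WT (SD, n = 6 each), a difference of 27.0 points. Of all probes, 45 (1.31%) gained more in rank.

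In deposited intensity the same gene hardly separated the genotypes. AT1G09200 ran between 0.341 and 0.648 in pete1, with a median of 0.483, and between 0.252 and 0.563 in WT, with a median of 0.389. These ranges overlapped widely, and the means of 0.485 ± 0.128 in pete1 and 0.405 ± 0.125 in WT (SD, n = 6 each) lay within 1 SD of each other. Set against the median of its own sample, the intensity was 1.58 ± 0.446 times that median in pete1 and 0.736 ± 0.169 times in WT.

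Much of the spread of AT1G09200 lay between the pairs of consecutive numbers. Samples 5 and 6 held its lowest intensities in both genotypes, 0.341 and 0.349 in pete1 and 0.252 and 0.300 in WT. Samples 3 and 4 were highest in pete1, at 0.605 and 0.648, while samples 1 and 2 were highest in WT, at 0.563 and 0.537. The gap inside a pair was at most 0.0679, whereas the pair means ran from 0.345 to 0.627 in pete1 and from 0.276 to 0.550 in WT. Within equal numbers the intensity was higher in pete1 for 4 of 6 numbers, all but 1 and 2, and the rank was higher for 6 of 6, by 19.9 to 35.1 points.

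**Figure D1:**
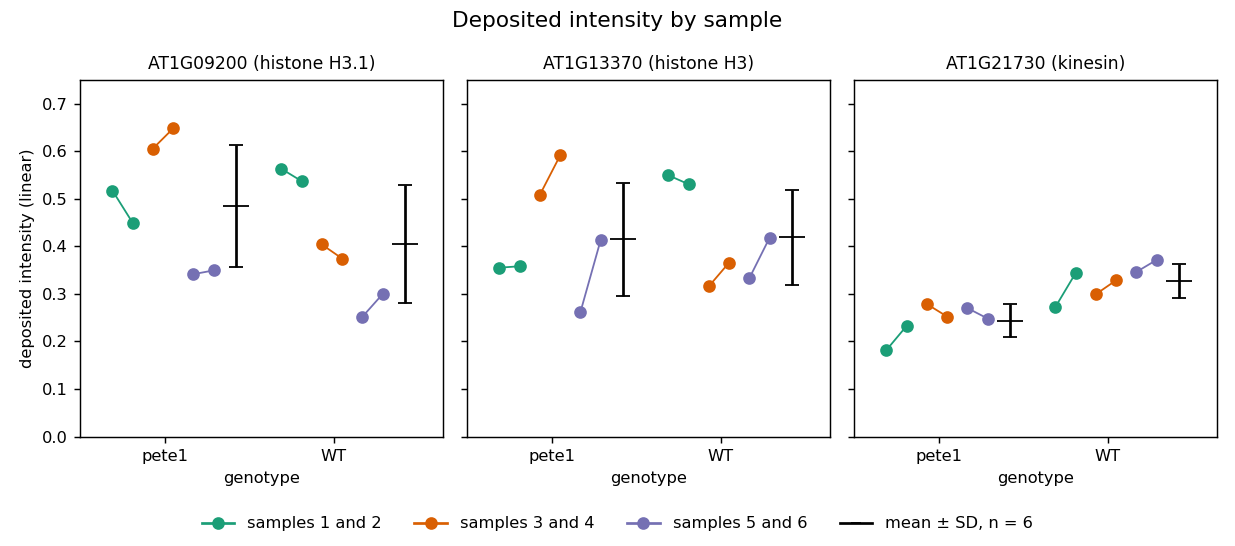
Deposited intensity (linear axis from 0) of the 3 genes in each sample, pete1 to the left of WT, with lines joining consecutive sample numbers and black bars for the mean ± SD of 6 samples. AT1G09200 and AT1G13370 overlap widely between the genotypes, and AT1G21730 overlaps only at 0.278 in pete1 3 and 0.272 in WT 1.

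The transcript of AT1G13370, the other histone H3 gene, gave the same contrast between the scales, with more overlap. Its intensity ran between 0.262 and 0.591 in pete1, with a median of 0.386, and between 0.316 and 0.549 in WT, with a median of 0.392. The means were 0.415 ± 0.118 in pete1 and 0.419 ± 0.100 in WT (SD, n = 6 each), which differed by far less than their spread. Its percentile rank ran between 42.3 and 70.7 in pete1 and between 30.9 and 44.9 in WT, with means of 58.6 ± 9.74 in pete1 and 38.3 ± 5.69 in WT. Only pete1 5, at 42.3, lay inside the WT range, and its partner pete1 6 was at 58.0.

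AT1G13370 followed AT1G09200 in which samples were high. Its pete1 maximum was again in samples 3 and 4, at 0.508 and 0.591, and its WT maximum in samples 1 and 2, at 0.549 and 0.530. In WT, samples 5 and 6 (0.333 and 0.418) did not lie below samples 3 and 4 (0.316 and 0.366), which differs from AT1G09200. The intensity was higher in pete1 for numbers 3 and 4 only, 2 of 6, while the rank was higher for 6 of 6, by 11.3 to 33.8 points. Numbers 3 and 4 gave the widest rank differences, 33.8 and 32.7 points, and without them the mean difference was 13.9 points, against 20.3 with all numbers.

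The kinesin gene AT1G21730 differed from the histone genes in that its intensity was lower in pete1 for every number. It ran between 0.182 and 0.278 in pete1, with a median of 0.250, and between 0.272 and 0.371 in WT, with a median of 0.336. The means were 0.244 ± 0.0344 in pete1 and 0.327 ± 0.0358 in WT (SD, n = 6 each), and the ranges touched only through pete1 3 and WT 1. Its percentile rank nonetheless lay higher in pete1, from 37.1 to 46.3, than in WT, from 20.6 to 35.6, without overlap. The mean rank was 42.1 ± 3.1 in pete1 and 29.9 ± 5.37 in WT, a difference of 12.2 points, and 379 probes (11.0% of all) gained more.

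In intensity and in rank AT1G21730 had the smallest SD of the 3 in both genotypes. On the normalised log2 scale this held in pete1 (0.12, against 0.38 for AT1G13370) but not in WT (0.30, against 0.24 for AT1G13370). The mean intensity of a pair of consecutive numbers ran from 0.207 to 0.265 in pete1 and from 0.308 to 0.359 in WT, and samples 1 and 2 were the lowest pair in both. By number the rank was higher in pete1 by 4.68 points (number 6) to 16.5 points (number 1). All 3 genes thus ranked higher in pete1 at every equal number, while the intensity was higher in pete1 for 4 of 6 numbers at AT1G09200, for 2 at AT1G13370 and for none at AT1G21730. The genes were chosen as higher after normalisation, which favours such rank counts, and no share of all probes was counted for them.

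**Figure D2:**
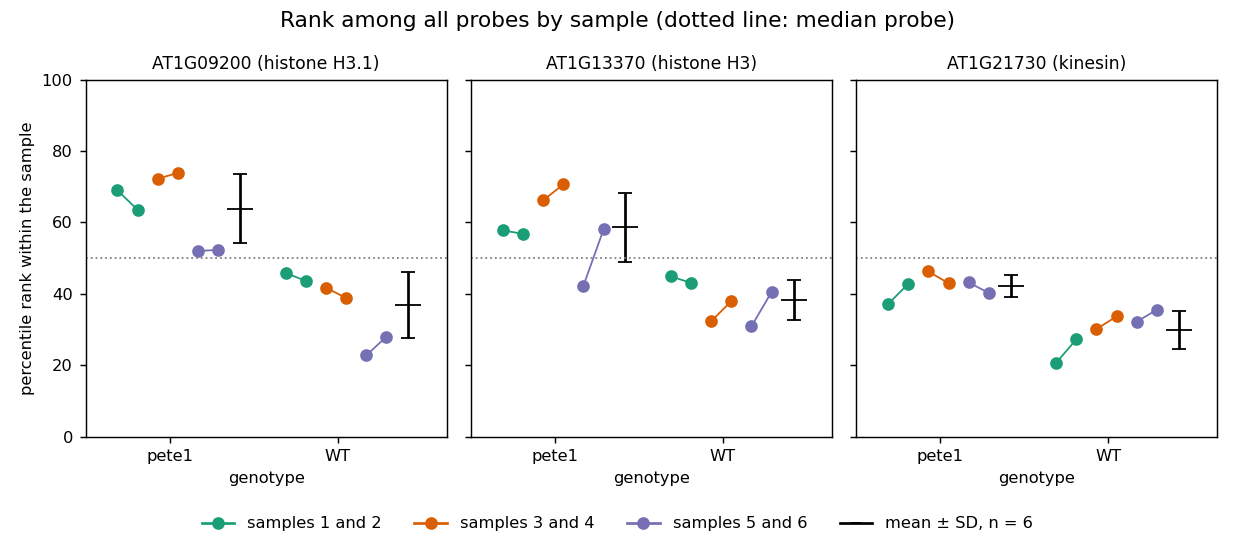
Percentile rank of the 3 genes among the 3439 probes of each sample (axis 0 to 100), pete1 to the left of WT, with lines joining consecutive numbers, black bars for the mean ± SD of 6 samples and a dotted line at the median probe. AT1G09200 and AT1G21730 do not overlap between the genotypes, and AT1G13370 overlaps through pete1 5 at 42.3.

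Read against all probes, ranks that did not overlap and were higher in pete1 were found for 2 of the 3 genes and for 10.3% of all probes, 353 of 3439. That share includes probes listed at 0. More probes were at 0 in each pete1 sample (244 to 293) than in each WT sample (170 to 206), and averaged ties rank them higher in pete1. In deposited intensity none of the 3 was free of overlap in either direction, against 1.60% of all probes higher and 32.8% lower in pete1. After quantile normalisation of log2 intensities, the values that chose them, all 3 passed limma as higher in pete1, as did 10.7% of all probes. As deposited, AT1G21730 passed the same test in the opposite direction, as lower in pete1, as did 50.8% of all probes, and the histone genes did not pass. The choice fixed the count after normalisation. Quantile normalised values follow the rank within a sample, so the choice also bears on the rank count. The scaling turns the direction, and nothing is read from any of these counts.

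The size of the difference followed the scaling, since the median log2 difference of all probes was -0.73 as deposited. AT1G09200 had a log2 difference (pete1 minus WT) of 0.28 as deposited and of 1.1 after quantile normalisation. AT1G13370 had -0.03 as deposited and 0.80 after normalisation, and AT1G21730 had -0.43 and 0.55. All 3 therefore lay above the median probe on both scales. Centring each sample on its median, which left the median difference of all probes at 0.08, gave 1.09 for AT1G09200, 0.78 for AT1G13370 and 0.38 for AT1G21730.

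**Figure D3:**
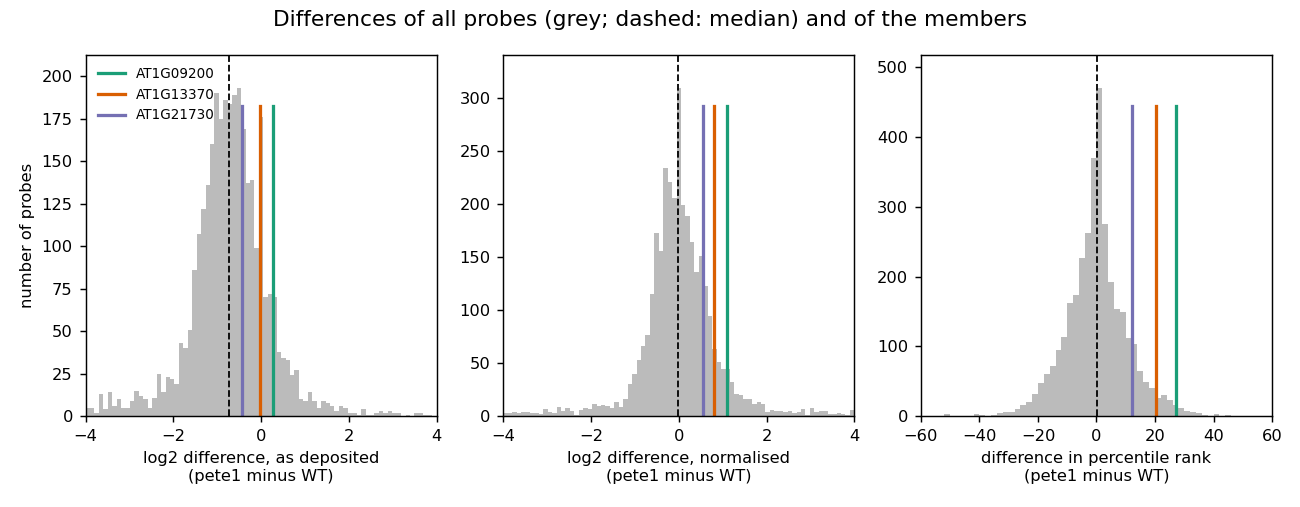
Differences between pete1 and WT (pete1 minus WT) of all probes in grey, with the median dashed and the 3 genes as coloured lines, for log2 intensity as deposited, for normalised log2 intensity and for percentile rank. The genes lie to the right of the median in each panel. The log2 axes stop at 4 in either direction, leaving out 139 probes as deposited and 94 after normalisation, and the rank axis stops at 60, leaving out 1 probe.

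The same intensity stood for different ranks in the 2 genotypes. The 25th percentile of intensity was 0.132 ± 0.0132 in pete1 and 0.279 ± 0.0346 in WT (SD, n = 6 each), and the 75th percentile was 0.676 ± 0.0215 in pete1 and 0.994 ± 0.0804 in WT. AT1G09200 in pete1 6 and AT1G21730 in WT 5 show this: their intensities were 0.349 and 0.346, and their ranks 52.3 and 32.2. Which scale reflects transcript per cell was not tested.

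**Figure D4:**
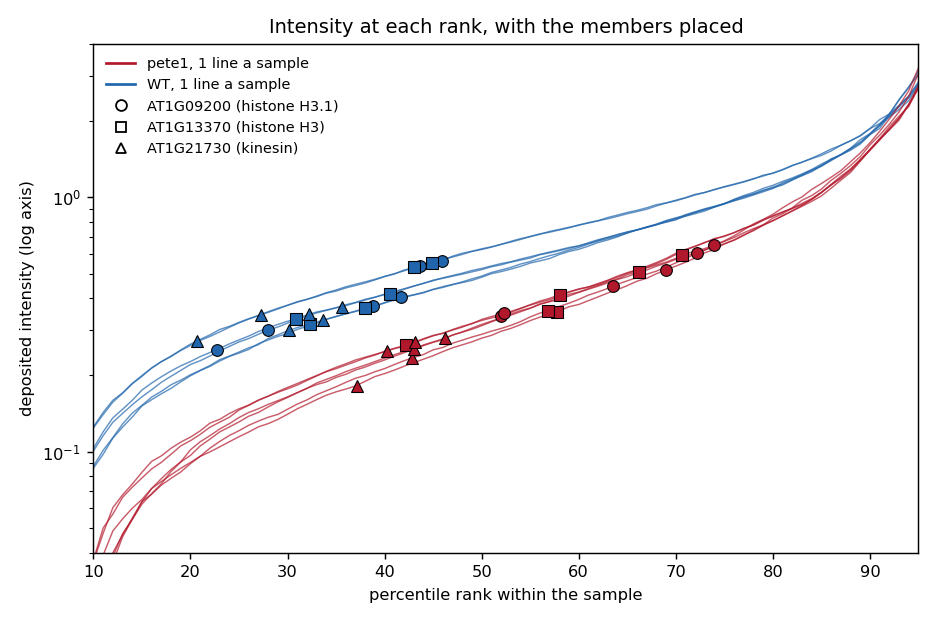
Deposited intensity (log axis) at each percentile rank in the 12 samples, 1 line a sample, with the 3 genes placed on the line of their sample as circles, squares and triangles. The pete1 lines run below the WT lines up to the brightest probes, so that AT1G09200 at 0.341 lies at rank 52.0 in pete1 5, while AT1G21730 at 0.343 lies at rank 27.2 in WT 2.

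Other probes of the histone H3 family gave values beside the chosen genes. The annotation held 8 probes with an H3 gene, the 2 described above, 1 other with a single gene and 5 with several genes. Of the 5 others that carry H3 genes alone, 2 rose and none fell after normalisation, against 10.7% of all probes higher and 11.0% lower. With median centring in place of quantile normalisation 3 rose and 1 fell, against 19.3% of all probes higher and 10.4% lower. As deposited none rose and 1 fell, against 3.34% of all probes higher and the 50.8% lower given above. The H3 genes are closely alike in sequence, and whether one transcript binds several of these probes was not tested, so they are not independent of AT1G09200 and AT1G13370.

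A probe shared by 2 H3.1 genes other than AT1G09200 resembled AT1G13370 in its values. Its intensity ran between 0.608 and 0.936 in pete1 and between 0.635 and 0.872 in WT, with means of 0.748 ± 0.146 in pete1 and 0.743 ± 0.0962 in WT (SD, n = 6 each). Its rank ran between 72.3 and 83.4 in pete1 and between 60.6 and 65.1 in WT, without overlap, and samples 3 and 4 were again the highest in pete1. After normalisation it rose by 0.60 on the log2 scale (limma adjusted p = 0.00383), a call kept when each such pair was fitted as a random block (limma adjusted p = 0.0286). It was lost when consecutive numbers were averaged to 3 against 3 (limma adjusted p = 0.236), and as deposited the log2 difference was -0.002.

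The H3.3 genes had 2 probes, which passed or not depending on the scaling. The probe shared by 3 H3.3 genes ran between 1.16 and 1.88 in pete1 and between 1.04 and 1.46 in WT, and it rose by 0.69 on the log2 scale after normalisation (limma adjusted p = 0.0105). Its log2 difference was 1.15 after median centring (limma adjusted p = 8.15e-05) and 0.34 as deposited (limma adjusted p = 0.0622). Its call was also lost with the pairs as a random block (limma adjusted p = 0.0567) and in averages (limma adjusted p = 0.268). The probe shared by 2 of the same H3.3 genes was at 0.739 ± 0.127 in pete1 and 0.935 ± 0.193 in WT (SD, n = 6 each) and did not pass (log2 difference 0.24, limma adjusted p = 0.292). After median centring it passed as higher, with a log2 difference of 0.48 (limma adjusted p = 0.0172), and its direction turned as deposited, with a log2 difference of -0.33.

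The probe shared by the centromeric histone gene HTR12 and the male gamete histone gene MGH3 was lower in pete1 in intensity and in mean rank. Its intensity ran between 0.104 and 0.163 in pete1 and between 0.259 and 0.492 in WT, without overlap. Of all probes, 32.8% were likewise lower in intensity without overlap. Its percentile rank was 24.5 ± 4.69 in pete1 and 32.0 ± 5.95 in WT (SD, n = 6 each), with overlap. Which of the 2 genes gave the signal cannot be read from this probe. As deposited it fell by 1.44 on the log2 scale (limma adjusted p = 0.000194), as did 50.8% of all probes. After normalisation its log2 difference was -0.41 and did not pass (limma adjusted p = 0.0925), whereas after median centring it was -0.63 and passed as lower (limma adjusted p = 0.0105).

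AT5G65360, the only other H3 gene with a probe of its own, was listed at 0 in 5 of 6 pete1 samples, at 0.00611 in pete1 2 and at 0 in all 6 WT samples. A probe shared by an H3.1 gene and a succinate dehydrogenase gene was either dim or above the middle of the array. It ran from 0.430 to 0.464 in pete1 1, 2 and 5 and was listed at 0 in pete1 3, 4 and 6. In WT it was at 0.742 and 0.817 in samples 1 and 2, at 0.0348 and 0.0492 in samples 5 and 6, and listed at 0 in samples 3 and 4. Which of its genes gave the signal cannot be read from this probe.

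**Figure D5:**
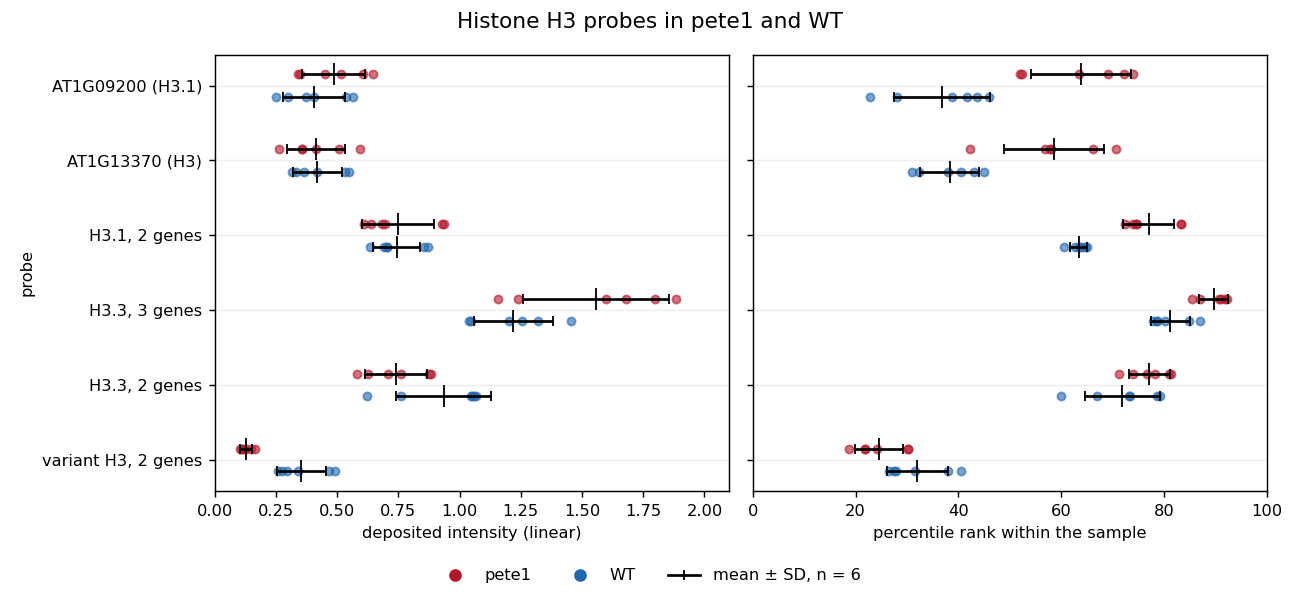
Deposited intensity (left, linear axis) and percentile rank (right) of 6 histone H3 probes, pete1 above WT, with 1 point a sample and black bars for the mean ± SD of 6 samples. The H3.1 probe of 2 genes and AT1G09200 separate the genotypes in rank, at 72.3 or above in pete1 against 65.1 or below in WT for the H3.1 probe, and the variant probe separates them in intensity.

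The kinesin gene AT1G21730 also shared a second probe with 2 other genes, and the 2 probes disagreed in which samples were high. The shared probe reached 1.04 in pete1 1 and 1.1 in pete1 2, while pete1 3 to 6 lay from 0.170 to 0.478 and the WT samples from 0.314 to 0.701. Samples 1 and 2 were thus its highest pete1 samples, whereas they were the lowest pair at the probe of AT1G21730 alone. It did not pass (log2 difference 0.72, limma adjusted p = 0.299), and as deposited the log2 difference was -0.002. Both probes ranked higher in pete1 on average. The mean rank of the shared probe was 61.3 ± 21.3 in pete1 and 45.0 ± 17.9 in WT (SD, n = 6 each), with overlap. How much of the signal of the shared probe comes from AT1G21730 was not tested.

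Few other genes of cell division or chromatin had a probe of their own. Of the 2 that a list by annotation terms held, AT5G65360 and the chromatin remodelling gene CHR31 (AT1G05490), neither passed limma, nor did either at an unadjusted limma p under 0.05. AT5G65360 was listed at 0 in every sample but pete1 2, so it could hardly have passed. CHR31 was at 0.891 ± 0.139 in pete1 and 1.49 ± 0.701 in WT (SD, n = 6 each), with a log2 difference of -0.25 (limma adjusted p = 0.623) that was 0.20 after median centring. Leaving out 1 sample moved it between -0.065 (without WT 2) and -0.47 (without WT 5). The WT spread came from the pairs, with 2.16 and 2.44 in WT 1 and 2 against 0.710 and 0.802 in WT 5 and 6.

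A further 3 genes were picked by symbol, and none passed limma after normalisation, nor at an unadjusted limma p under 0.05. FBL17 (AT3G54650), an F-box protein that marks inhibitors of the cell cycle for breakdown, reached 0.402 in pete1 1 and 0.307 in pete1 2, while pete1 3 to 6 lay from 0.0756 to 0.0919 and the WT samples from 0.278 to 0.400. TRM31 (AT5G58630), named for a motif that recruits the microtubule protein TON1, was at 0.118 ± 0.0329 in pete1 and 0.337 ± 0.106 in WT (SD, n = 6 each). TCP15 (AT1G69690), a transcription factor of the TCP family, was at 0.168 ± 0.0362 in pete1 and 0.369 ± 0.104 in WT. All 3 fell as deposited, as did 50.8% of all probes. After median centring TRM31 alone passed as lower, with a log2 difference of -0.68 (limma adjusted p = 0.0358). Their normalised log2 differences were -0.28, -0.41 and -0.13 in the order named, and their differences in mean percentile rank were -0.935, -7.06 and -2.87 points. Leaving out 1 sample moved the log2 difference of FBL17 between -0.14 (without pete1 3) and -0.58 (without pete1 1), and that of TCP15 between -0.061 (without pete1 4) and -0.20 (without WT 4).

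The likeness of the 3 genes to each other was described by the Pearson correlation of percentile ranks over the 12 samples after taking off each genotype's mean, without a p, since consecutive and equal numbers share structure. AT1G09200 and AT1G13370 correlated at 0.70, whereas AT1G21730 correlated at -0.36 with AT1G09200 and at -0.15 with AT1G13370. The H3.1 probe of 2 genes correlated at 0.53 with AT1G09200 and at 0.76 with AT1G13370. The H3.3 probes correlated less with these 2 histone genes, and with the H3.1 probe at 0.38 (3 genes) and 0.23 (2 genes). The probe of 3 H3.3 genes correlated at -0.50 with AT1G09200, at -0.022 with AT1G13370 and at 0.47 with AT1G21730, and the probe of 2 at -0.54, 0.033 and 0.097 in the same order. The variant probe correlated at 0.51 with AT1G09200, at 0.46 with AT1G13370 and at -0.56 with AT1G21730.

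The same measure with the genotype difference left in was used to name the most alike of 590 other single-gene probes above 0 in all samples. For AT1G09200 these were AT4G35980 (0.918), AT1G78620 (0.911) and AT4G08940 (0.895), and AT4G35980 was also the most alike within genotypes (0.969). For AT1G13370 they were FATB (0.883), AT5G27860 (0.847) and AT1G78620 (0.834), with AT5G19750 within genotypes (0.784). For AT1G21730 they were LpxA (0.939), PRK (0.919) and AT4G30740 (0.913), with DRT101 within genotypes (0.846). All 8 genes named with the genotype difference left in had a higher mean rank in pete1 than in WT, for example FATB at 37.4 in pete1 against 12.9 in WT and AT1G78620 at 81.0 in pete1 against 52.8 in WT. A measure that holds the genotype difference favours such genes.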

How the data were processed

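The deposited intensities, 1 value per probe and sample on a linear scale, were scaled by the authors in a way not given in the sources used here. No spot background was used, and precision is limited by having 6 samples a genotype. Genes were taken from the platform annotation and updated through gene identifiers with the RefSeq table of TAIR10.1. Of 3439 probes, 692 had 1 gene (690 matched a locus), 870 several and 1877 none. That table holds symbols and synonyms but no descriptions or sequences, so list terms were searched in those alone and no sequence is shown.

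The smallest positive intensity (4.74e-05) was added before log2, and since the brightest sample median was 2.25 times the dimmest, over a limit of 1.2, values were quantile normalised. All probes were fitted with limma 3.58.1 (R 4.3.3, with statmod 1.5.0) in a two-sided comparison of pete1 with WT, with Benjamini-Hochberg adjustment over 3439 probes, threshold 0.05. The fit was tested on simulated data. Alternatives changed the scaling, the offset, the probes kept, the block and the samples. Genes and lists were chosen with earlier results of these data known. Named were the 3 genes, list members (the 2 with the smallest p in a role where none passed) and, per gene, the 3 most alike probes and the most alike within genotypes. FBL17, TRM31, TCP15 and the H3 probes of several genes were added later.

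Deviations from genotype means correlated at 0.221 to 0.452 in all 6 pairs of equal numbers, and at a median of 0.255 between consecutive numbers. Unequal numbers were not compared across the genotypes, so whether the numbers pair the samples was not tested. The main fit did not pair the samples, and counts with the number as a block are given below as the replicate block.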

Additional observations from a re-analysis of the deposited data

Results flagged for a closer look

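In 63 sets of 6 values, 1 genotype each, a single sample stood far from the rest in 4 sets, and about 5% of sets would show this by chance with independent values. None of them belonged to AT1G09200, AT1G13370 or AT1G21730. The H3.1 gene AT5G65360 was at an intensity of 0.00611 in pete1 2 and at 0 in the other pete1 samples, which put its percentile rank there at 7.71, against 3.56 to 4.27 in the others. FBL17 (AT3G54650) had a percentile rank of 38.5 in WT 5, above the other WT samples at 28.2 to 31.8. LHCB1.5 (AT2G34420), an antenna protein of photosystem II and one of the green tissue markers, had a percentile rank of 99.71 in pete1 5, with the other pete1 samples between 99.62 and 99.65.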

How the results depend on the processing

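The rank differences of AT1G09200, AT1G13370 and AT1G21730 kept their direction and stayed within 1 SD under every alternative run for them. Leaving out 1 sample gave 24.2 to 29.4, 17.9 to 23.6 and 10.3 to 13.3 points for the 3 in that order, and normalised log2 differences of 0.98 to 1.19, 0.69 to 0.92 and 0.44 to 0.61. As deposited the log2 differences moved to 0.28 for AT1G09200, -0.0298 for AT1G13370 and -0.43 for AT1G21730, the last 2 turning in direction. So did those of the H3.1 probe of 2 genes (-0.0018), the H3.3 probe of 2 genes (-0.33) and the shared probe of AT1G21730 (-0.0015), while CHR31 turned after median centring (0.20). Median centring also added calls for the H3.3 probe of 2 genes (limma adjusted p = 0.0172), the variant H3 probe (0.0105) and TRM31 (0.0358), and gave 664 probes higher and 357 lower in pete1, against 369 and 377. Against 746 probes called, the intensities as deposited gave 1861, consecutive numbers as a random block 163 and their averages 7 (563 at an unadjusted limma p under 0.05). The replicate block gave 743, and both called H3 probes kept their call with it (limma adjusted p of 0.0196 and 0.0209). Leaving out 1 sample gave 550 to 722 probes and kept both H3 calls in 12 of 12 fits. No planned list gene was called under any alternative (0 on leaving out 1 sample). AT5G65360, listed at 0 in every sample but pete1 2, could hardly have been called under any of them. Leaving out 2 numbers in turn was added after seeing the data. What caused these changes was not tested.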
